A study of Mus musculus with 9 samples.

Results

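Calcium handling by the sarcoplasmic reticulum was examined through 10 genes of the cardiac release and reuptake machinery, namely Ryr2, Cacna1c, Jph2, Atp2a2, Pln, Sln, Casq2, Hrc, Slc8a1 and Camk2d. They were taken by exact gene name from a table of fragment counts with 55401 genes, where each name occurred once. All 10 passed the filter on low counts, which left 16762 genes for testing. The cells were wild-type ventricular myocytes of newborn C57BL/6J mice aged 1 day, kept as primary cultures, and polyadenylated RNA was sequenced in 3 groups of 3 libraries. Control cultures stayed in normal oxygen and complete medium with serum. Cultures labelled hypoxia were placed for 6 h in a sealed chamber with an oxygen absorber, in medium lacking both glucose and serum. Cultures labelled hypoxia + rSRGN received the same treatment with recombinant serglycin (rSRGN), a secreted proteoglycan core protein, in the medium during those 6 h. Loss of oxygen, of glucose and of serum were applied together, so that against control their effects cannot be told apart, whereas the hypoxia groups differed from each other, by their labels, in rSRGN alone. Nothing in the labels states that the 3 libraries of a group came from separate cultures or litters, so the p-values below measure the spread between these libraries, which may be technical.

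In a ventricular myocyte, calcium enters through the L-type channel (Cacna1c encodes its pore) and opens the ryanodine receptor (Ryr2), which releases the calcium stored in the sarcoplasmic reticulum. The channel and the receptor face each other at the dyad, a junction held together by junctophilin 2 (Jph2). Relaxation follows when the pump SERCA2 (Atp2a2) returns calcium to the store, where calsequestrin 2 (Casq2) and the histidine-rich calcium binding protein (Hrc) bind it, and when the sodium-calcium exchanger (Slc8a1) carries the remainder out of the cell. Phospholamban (Pln) and sarcolipin (Sln) are small membrane proteins that inhibit the pump, and the kinase CaMKII delta (Camk2d) phosphorylates both phospholamban and the ryanodine receptor.

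Total counts ran from 21669017 to 22781557 in control, from 16583985 to 18148474 in hypoxia and from 16640239 to 20826701 in hypoxia + rSRGN. Every member had at least 167 counts in every library. The 14 cardiomyocyte markers (Myh6, Myh7, Tnnt2, Tnni3, Tnni1, Tnnc1, Actc1, Myl2, Myl3, Ttn, Mybpc3, Actn2, Nkx2-5 and Ckmt2) were detected in every group and the collagen genes Col1a1, Col1a2 and Col3a1 of fibroblasts were detected beside them. Hypoxia replicate 3 stood apart for the members: it had the lowest scaled count of its group for 10 of 10, and the median coefficient of variation of the members was 21.4% in hypoxia against 9.04% in control and 7.88% in hypoxia + rSRGN. Hypoxia replicate 1 had the highest for 9 of 10. Over all genes, in contrast, hypoxia replicate 2 differed most from the others, with a chi-square per degree of freedom of 13.1 against replicate 1 and 12.7 against replicate 3, while replicates 1 and 3 were at 6.68. Results of the members between the hypoxia groups that rest on replicate 3 are given with and without it.

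In control cultures the members spanned an 81.4-fold range of level. Levels are given on the FPKM scale, that is TMM-scaled CPM (counts relative to library size) divided by the exon length of the gene in kilobases, as mean ± SD over the 3 libraries of a group. Atp2a2, the pump, had the highest level in control, at 1132 ± 89.7, followed by the store buffer Casq2 at 377 ± 23.3 and by Pln at 245 ± 29.0. Jph2 stood at 111 ± 11.4, Sln at 89.9 ± 3.18, Hrc at 75.5 ± 7.40, Slc8a1 at 64.8 ± 5.91 and Ryr2 at 39.4 ± 6.27. Cacna1c at 14.6 ± 1.31 and Camk2d at 13.9 ± 0.520 were the lowest. Of the 9 pairs of neighbours in this order, 7 did not overlap between libraries, while Hrc overlapped with Slc8a1 and Cacna1c overlapped with Camk2d. Among all tested genes the control level of Atp2a2 was at percentile 99.9 and that of Camk2d at percentile 79.8. The order depends on the length used for genes with many isoforms. With the longest protein-coding transcript in place of all exons, Camk2d rose to 56.6 ± 2.12 and Ryr2 to 67.4 ± 10.7, and Cacna1c at 24.3 ± 2.18 became the lowest, while the 6 highest members kept their order.

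**Figure D1:**
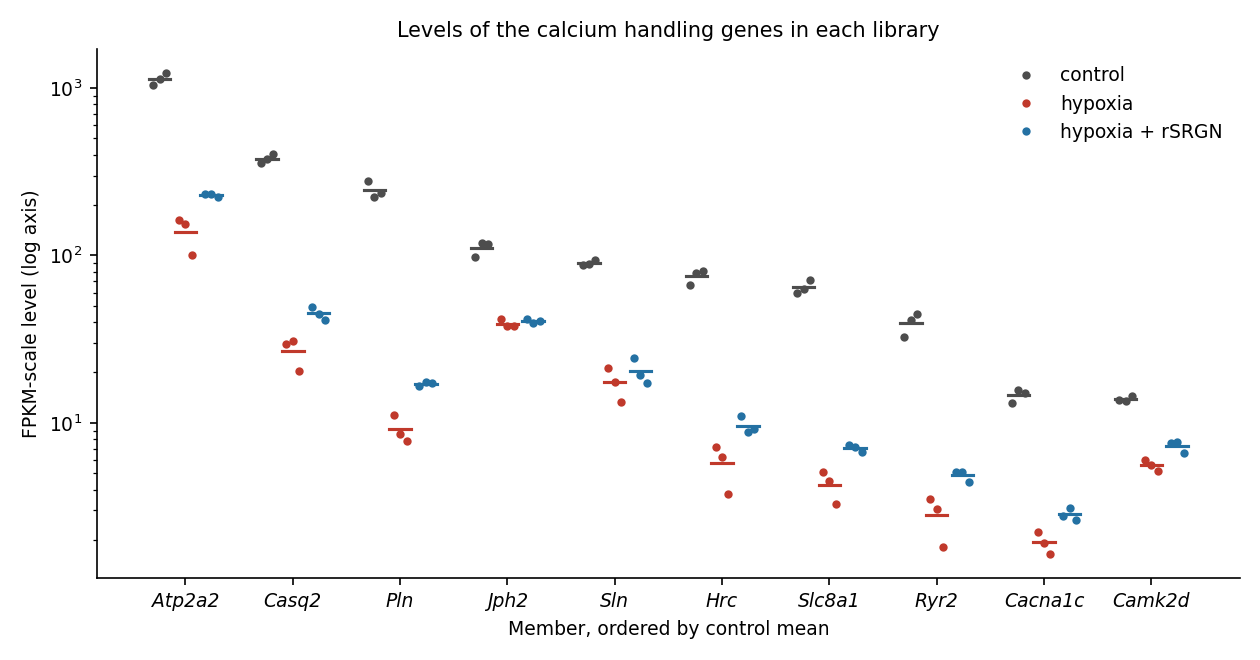
FPKM-scale level (log axis) of each of the 10 members in each of the 9 libraries, with members ordered by their control mean; points are libraries and horizontal bars are group means (n = 3). Control libraries lie above both hypoxia groups for every member, and the blue points (hypoxia + rSRGN) lie above the red ones (hypoxia) without overlap for 8 of 10 members, Jph2 and Sln being the exceptions.

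The comparison of hypoxia with control asks what 6 h without oxygen, glucose and serum did to these transcripts. All 10 members fell. Their median log2 fold change was -3.37, with a range from -4.74 to -1.31, beside a median of 0.05 over all tested genes. Each of the 10 was called lower by edgeR's quasi-likelihood test, with a Benjamini-Hochberg adjusted p below 0.05 over all tested genes and a fold of at least 1.5, beside 25.1% of all tested genes called lower. The 3 control libraries lay above the 3 hypoxia libraries for 10 of 10 members, which was the case for 35.3% of all tested genes. In these bulk libraries, fewer myocytes and less of these transcripts per myocyte cannot be told apart.

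Ryr2, the release channel, had levels of 32.4, 41.2 and 44.5 in the control libraries and of 3.52, 3.06 and 1.82 in the hypoxia libraries. It fell 14.04-fold, a log2 change of -3.81 ± 0.16 (SE) with an adjusted p of 4.736e-15 by edgeR. Cacna1c, which supplies the trigger calcium, had levels of 13.1, 15.7 and 15.1 in control and of 2.24, 1.92 and 1.65 in hypoxia, a log2 change of -2.91 ± 0.10. The groups were far apart for both channels, and the entry channel kept 13.3% of its control level where the release channel kept 7.12%. Jph2, the tether of the dyad, had levels of 98.3, 119 and 117 in control and of 41.5, 37.9 and 37.7 in hypoxia. Its log2 change of -1.51 ± 0.08 was among the smallest of the 10, and it kept 35.0% of its control level.

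Atp2a2, the pump, had levels of 1045, 1127 and 1224 in the control libraries and of 162, 154 and 101 in the hypoxia libraries. It fell 8.15-fold, a log2 change of -3.03 ± 0.13 with an adjusted p of 3.027e-15 by edgeR. It nonetheless remained the member with the highest level, at 139 ± 33.5. The pump inhibitors fell to different extents. Pln had levels of 278, 223 and 235 in control and of 11.1, 8.54 and 7.83 in hypoxia, a 26.7-fold fall with a log2 change of -4.74 ± 0.12 and an adjusted p of 6.533e-19 by edgeR. This was the deepest fall among the members, at percentile 0.573 of the log2 changes of all tested genes. Sln had levels of 87.6, 88.6 and 93.5 in control and of 21.3, 17.6 and 13.4 in hypoxia, a log2 change of -2.36 ± 0.13. Pln stood above Sln in every control library and below it in every hypoxia library on this per-length scale.

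The exons of Pln share 1785 of their 2759 bases (64.7%) with genes annotated on the opposite strand, namely 1644 bases with Gm47644 and 141 with Cep85l. Since counting ignored strand, fragments from those bases could have been left out or given to either gene, and the level of Pln relative to the other members is uncertain. Counts of Gm47644 were 449, 351 and 280 in control, 30, 21 and 20 in hypoxia and 37, 53 and 45 in hypoxia + rSRGN. Its log2 changes, -3.63 ± 0.21 for hypoxia against control and 0.84 ± 0.25 for hypoxia + rSRGN against hypoxia, had the same signs as those of Pln. Counts of Cep85l were 355, 342 and 312 in control, 490, 355 and 421 in hypoxia and 498, 594 and 465 in hypoxia + rSRGN. Unlike those of Pln, they were not lower in hypoxia. Divided by the 974 unshared bases alone, the level of Pln would be 695 in control, 26.0 in hypoxia and 48.6 in hypoxia + rSRGN, which puts it above Sln in all 3 groups. The fold changes of Pln between groups do not depend on this length. Slc8a1 shared 1.62% of its exon bases in this way and Atp2a2 1.36%, and the remaining 7 members shared none.

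Both store buffers fell by similar amounts. Casq2 had levels of 355, 375 and 401 in the control libraries and of 29.7, 30.9 and 20.4 in the hypoxia libraries, a log2 change of -3.80 ± 0.12. Hrc, which also binds calcium inside the reticulum, had levels of 67.0, 78.7 and 80.7 in control and of 7.14, 6.28 and 3.77 in hypoxia, a log2 change of -3.71 ± 0.15. Neither gene had a hypoxia library near its control range. Slc8a1, the exchanger of the surface membrane, had levels of 59.9, 63.2 and 71.4 in control and of 5.06, 4.49 and 3.26 in hypoxia. Its fall of 15.2-fold, a log2 change of -3.92 ± 0.12 with an adjusted p of 2.294e-17 by edgeR, came next after that of Pln. Camk2d, the kinase, had levels of 13.8, 13.5 and 14.5 in control and of 6.01, 5.63 and 5.16 in hypoxia. Its log2 change of -1.31 ± 0.08 was the smallest of the 10, with an adjusted p of 1.111e-12 by edgeR, and it kept 40.3% of its control level.

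The order of the levels changed with these unequal falls. In hypoxia the order ran Atp2a2, Jph2, Casq2, Sln, Pln, Hrc, Camk2d, Slc8a1, Ryr2 and Cacna1c, so that with the length of all exons Jph2 moved from rank 4 to rank 2, Camk2d from rank 10 to rank 7 and Pln from rank 3 to rank 5. With the longest protein-coding transcript Jph2 moved between the same ranks, Camk2d moved from rank 9 to rank 4, at 22.8 ± 1.75 in hypoxia, and Pln from rank 3 to rank 6, at 10.8 ± 2.06. Between libraries 4 of the 9 neighbouring pairs overlapped, namely Casq2 with Sln, Hrc with Camk2d, Slc8a1 with Ryr2, and Ryr2 with Cacna1c. Exon length was related to the changes of all genes in this comparison. The median log2 change ran from 0.61 in the tenth of genes with the shortest exons to -0.32 in the tenth with the longest. With a smooth trend on exon length taken out, the log2 change of Camk2d was -0.78 and those of Cacna1c and Ryr2 were -2.39 and -3.22, while that of Sln, a short gene, was -2.66. Slc8a1 was then at -3.44, and its fall no longer came next after that of Pln (-4.92), since Casq2 was at -3.98 and Hrc at -3.92. All 10 members stayed past the fold limit, with a median of -3.05. How many of all tested genes did so on this scale was not counted.

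**Figure D2:**
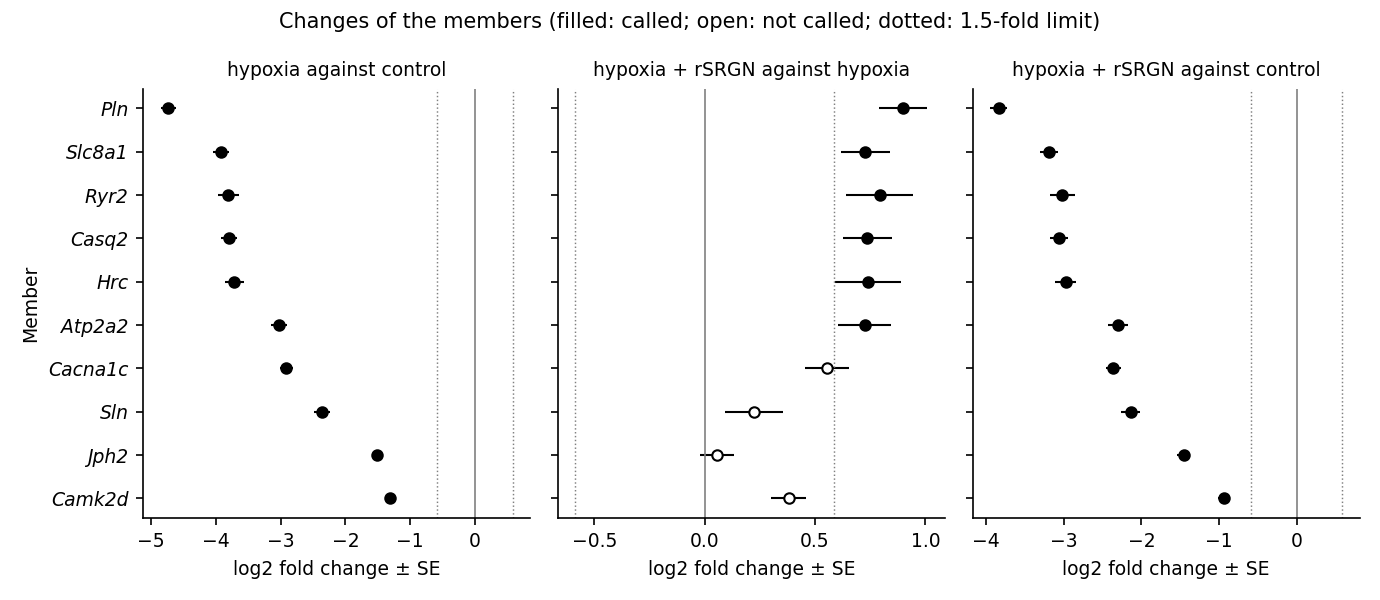
Log2 fold change ± SE of the 10 members in the 3 comparisons, from the edgeR fit over 9 libraries; filled points were called, open points were not, and dotted lines mark the 1.5-fold limit. The left panel runs from -4.74 (Pln) to -1.31 (Camk2d), and in the middle panel 6 of 10 members lie past the limit while Jph2 lies at 0.06 and Sln at 0.22. The horizontal scales differ between panels.

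The comparison of hypoxia + rSRGN with hypoxia asks whether the added protein changed the transcripts under the same loss of oxygen, glucose and serum. Most members were moderately higher with rSRGN, with a median log2 fold change of 0.73 beside -0.03 over all tested genes. In all, 6 members were called higher, namely Pln, Ryr2, Hrc, Casq2, Slc8a1 and Atp2a2, and 0 were called lower, beside 2.27% of all tested genes called higher and 0.859% called lower. Cacna1c and Camk2d had adjusted p-values below 0.05 with folds below 1.5, so 8 of 10 members passed without the fold limit, beside 16.6% of all tested genes in either direction. Jph2 and Sln did not pass. The hypoxia + rSRGN libraries lay above all hypoxia libraries for those same 8 members, beside 16.5% of all tested genes.

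Ryr2 had levels of 5.08, 5.09 and 4.41 in the hypoxia + rSRGN libraries, against 1.82 to 3.52 in hypoxia. It was 1.73-fold higher, a log2 change of 0.79 ± 0.15 with an adjusted p of 0.00132 by edgeR. Cacna1c had levels of 2.80, 3.10 and 2.64, against 1.65 to 2.24, a log2 change of 0.55 ± 0.10 with an adjusted p of 0.000740 by edgeR. Every rSRGN library was above every hypoxia library for both channels, although the 1.47-fold difference of Cacna1c lay just under the limit. Jph2 had levels of 42.0, 39.3 and 40.5, against 37.7 to 41.5, with overlapping groups. Its log2 change was 0.06 ± 0.08 with an adjusted p of 0.690 by edgeR.

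Atp2a2 had levels of 233, 231 and 225 in the hypoxia + rSRGN libraries, against 101 to 162 in hypoxia, a log2 change of 0.73 ± 0.12 with an adjusted p of 0.000375 by edgeR. Pln had levels of 16.6, 17.5 and 17.4, against 7.83 to 11.1, a log2 change of 0.90 ± 0.11 with an adjusted p of 4.112e-05 by edgeR. For the pump and this inhibitor the rSRGN libraries lay close together and above all hypoxia libraries. Sln had levels of 24.5, 19.4 and 17.4, against 13.4 to 21.3, so that the groups overlapped. Its log2 change was 0.22 ± 0.13 with an adjusted p of 0.270 by edgeR.

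Casq2 had levels of 49.3, 44.5 and 41.3 in the hypoxia + rSRGN libraries, against 20.4 to 30.9 in hypoxia, a log2 change of 0.74 ± 0.11. Hrc had levels of 10.9, 8.79 and 9.14, against 3.77 to 7.14, a log2 change of 0.74 ± 0.15. Slc8a1 had levels of 7.42, 7.15 and 6.68, against 3.26 to 5.06, a log2 change of 0.73 ± 0.11. These buffers and the exchanger, with Atp2a2, thus shared nearly the same change, within 1 SE of each other. Camk2d had levels of 7.54, 7.69 and 6.64, against 5.16 to 6.01, a 1.30-fold difference with a log2 change of 0.38 ± 0.08 and an adjusted p of 0.00196 by edgeR. Its groups did not overlap either, but the difference was below the fold limit.

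These calls rested on the fold limit and on hypoxia replicate 3. Without that library, 1 of 10 members was called (Pln, at 0.80 ± 0.11), beside 1.84% of all tested genes called in either direction, and the other 5 had log2 changes from 0.52 to 0.57, just under the limit of 0.58. Without the fold limit, 8 of 10 members still had an adjusted p below 0.05 without that library, beside 9.85% of all tested genes, and the log2 change was 0.56 ± 0.11 for Ryr2 and 0.54 ± 0.08 for Atp2a2. When the test was made against a fold of 1.5 rather than against no change (glmTreat in edgeR), 0 of 10 members and 0 of the 16762 tested genes passed, with 5 members and 2.14% of the genes at an unadjusted p below 0.05. With the exon length trend taken out, 4 of 10 members had a log2 change past the fold limit (Pln, Hrc, Casq2 and Atp2a2), and Ryr2 was at 0.49, Slc8a1 at 0.47, Cacna1c at 0.28 and Camk2d at 0.10. The share of all tested genes past the limit was not counted with the trend taken out.

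**Figure D3:**
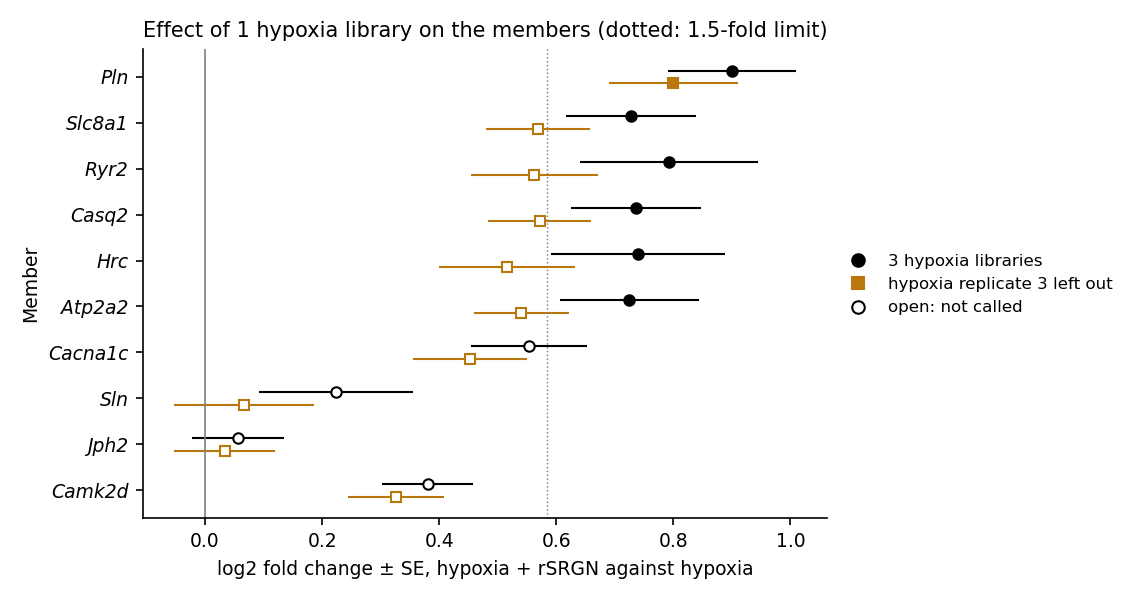
Log2 fold change ± SE of each member for hypoxia + rSRGN against hypoxia, with all 3 hypoxia libraries (black circles) and with hypoxia replicate 3 left out (brown squares); filled symbols were called, open ones were not, and the dotted line marks the 1.5-fold limit. Leaving out that library moved the values toward 0 for all 10 members and left Pln, at 0.80, as the member called.

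Compared with control, the hypoxia + rSRGN cultures still had low levels of every member. All 10 were called lower, beside 24.7% of all tested genes called lower, with a median log2 fold change of -2.67 and a range from -3.84 to -0.93, and none of the groups overlapped, beside 36.6% of all tested genes lower without overlap. Pln had reached 6.99% of its control level, against 3.74% in hypoxia, and Slc8a1 10.9% against 6.59%. Ryr2 stood at 12.3% of control against 7.12%, Casq2 at 11.9% against 7.17%, and Hrc at 12.7% against 7.59%. Atp2a2 stood at 20.3% against 12.3%, and Cacna1c at 19.5% against 13.3%. Sln at 22.7% against 19.4% and Jph2 at 36.4% against 35.0% differed little between the hypoxia groups, and Camk2d, at 52.4% against 40.3%, was the member nearest to its control level. The comparison shares its control libraries with that of hypoxia against control and its rSRGN libraries with the one above, so the 3 sets of changes are not independent.

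Ratios between members within a library do not depend on how libraries were scaled. The 8 pairs examined were compared in all 3 ways, which made 24 two-sided exact permutation tests. With 3 libraries against 3 these cannot go below 0.1, and the lowest value after Benjamini-Hochberg adjustment was 0.15, so no ratio could reach 0.05. The ratio of Pln to Atp2a2, inhibitor to pump, was 0.266, 0.198 and 0.192 per kilobase in control and lower in every hypoxia library, with a log2 difference of -1.70 (exact p = 0.1, adjusted 0.15). Sln to Pln moved the other way, from a log2 ratio of -1.44 ± 0.19 in control to 0.92 ± 0.14 in hypoxia and 0.24 ± 0.29 in hypoxia + rSRGN, with no overlap between any pair of groups. The store was different. Casq2 to Ryr2 had log2 ratios of 3.27 ± 0.16 in control, 3.30 ± 0.21 in hypoxia and 3.21 ± 0.08 in hypoxia + rSRGN, and Hrc to Casq2 had -2.32 ± 0.08, -2.26 ± 0.19 and -2.23 ± 0.09, with overlapping groups in every comparison. Differences for these pairs were at most 0.09 on the log2 scale, and 5 of these 6 differences changed sign when a single library was left out.

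The remaining ratios set members against the pump or the release channel. Slc8a1 to Atp2a2 was lower in hypoxia than in control by a log2 difference of -0.89 and differed by -0.0044 between the hypoxia groups, where the groups overlapped (exact p = 0.9, adjusted 0.9). Against Ryr2, the ratio of Jph2 had log2 values of 1.51 ± 0.10 in control, 3.85 ± 0.45 in hypoxia and 3.07 ± 0.13 in hypoxia + rSRGN. That of Camk2d was -1.49 ± 0.22, 1.05 ± 0.39 and 0.59 ± 0.01, and that of Cacna1c was -1.42 ± 0.13, -0.49 ± 0.30 and -0.77 ± 0.08. All 3 ratios were higher in every hypoxia library than in every control library and lower in every hypoxia + rSRGN library than in every hypoxia library. Hypoxia replicate 3 had the highest value of its group for each of them, and without it the log2 differences between hypoxia + rSRGN and hypoxia were -0.53 for Jph2, -0.24 for Camk2d and -0.11 for Cacna1c, beside -0.79, -0.46 and -0.28 with it. In all, 6 of 8 ratios did not overlap between hypoxia and control, 4 of 8 between the hypoxia groups, and 6 of 8 between hypoxia + rSRGN and control. The share of pairs of other genes without overlap was not counted. Relative to the cardiomyocyte markers, 96.7% of all tested genes were higher without overlap in hypoxia than in control. On that scale 74.5% were lower without overlap in hypoxia + rSRGN than in hypoxia.

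**Figure D4:**
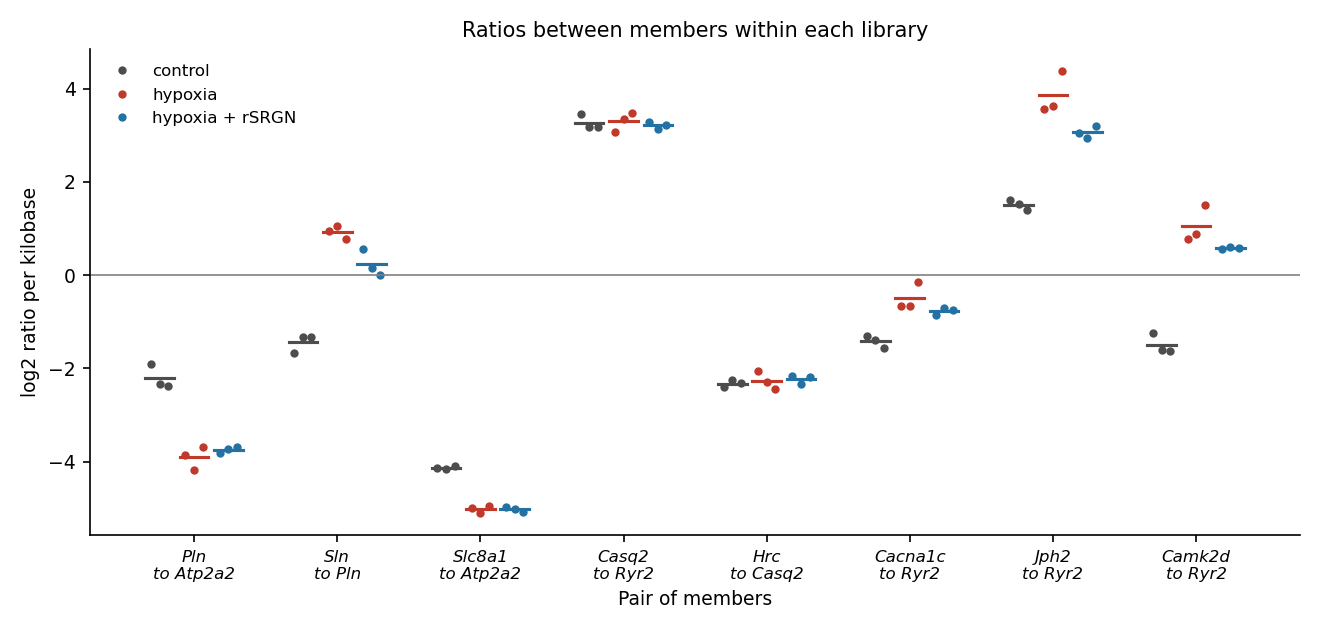
Log2 ratio of counts per kilobase between 8 pairs of members within each library; points are libraries, colours are groups and bars are group means (n = 3). Casq2 to Ryr2 and Hrc to Casq2 overlap in all 3 groups, whereas Sln to Pln goes from -1.44 in control to 0.92 in hypoxia, and Jph2 and Camk2d rise relative to Ryr2 in hypoxia.

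A wider list of 65 calcium genes outside the members, of which 62 were tested, behaved less uniformly. In hypoxia against control 14 were called higher (beside 26.4% of all tested genes called higher), 32 lower (beside 25.1%) and 16 were not called, with a median log2 change of -0.70 and a range from -4.19 to 2.71. In hypoxia + rSRGN against hypoxia 4 of 62 were called higher and 0 lower, beside 2.27% and 0.859% of all tested genes, and the median was 0.11. Without the fold limit 15 were higher and 4 lower at an adjusted p below 0.05 by edgeR, beside 16.6% of all tested genes in either direction. The 4 genes called higher, named after their values were seen, were Trdn, which anchors calsequestrin at the release channel (0.76), and the channel inhibitor Rrad (0.71). The others were Cmya5, listed under dyad and T-tubule structure (0.68), and Akap6, listed under kinases, phosphatases and anchors (0.63). Without hypoxia replicate 3, Trdn and Rrad were called, beside 1.84% of all tested genes in either direction.

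The counts by role stand beside 26.4% of all tested genes called higher and 25.1% called lower in hypoxia against control. With 5 to 14 tested genes in a role they are descriptions, and no difference between roles was tested. Among genes of dyad and T-tubule structure, 5 of 6 were called lower and 1 higher in hypoxia, with Cav3 (caveolin 3) at a log2 change of -2.86 ± 0.09 and Tcap (telethonin) at -3.84 ± 0.15. Among kinases, phosphatases and anchors 11 of 12 were lower, with Prkar1a, a regulatory subunit of protein kinase A, at -0.83 ± 0.07, while the phosphatase gene Ppp1ca was not called at 0.00 ± 0.07. Sarcolemmal entry and extrusion genes had 6 of 12 lower and 1 higher, with Rrad at -2.46 ± 0.11 and the channel subunit gene Cacnb3 at 1.28 ± 0.08. Release channels and their regulators had 6 of 14 higher and 5 lower, with the calmodulin genes Calm2 at 0.74 ± 0.09 (called) and Calm3 at 0.38 ± 0.08 (below the fold limit).

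In the group of pumps, small pump regulators, buffers and counter-ion channels, 1 of 6 tested genes was higher and 2 were lower in hypoxia. Calr (calreticulin, the calcium buffer of the endoplasmic reticulum) was at 1.08 ± 0.08 and Tmem38a, a counter-ion channel of the sarcoplasmic reticulum, at -3.05 ± 0.10. Calr thus had a change opposite in sign to those of Casq2 and Hrc. Mitochondrial uptake and release genes had 2 of 7 higher and 2 lower, with Micu2 at -0.90 ± 0.08 and Smdt1 at -0.29 ± 0.08, which was below the fold limit. Store-operated entry genes had 3 of 5 higher and 1 lower, with the store sensor Stim2 at 1.19 ± 0.09 and the channel gene Orai3 at 0.35 ± 0.11, which was below the fold limit. Against control, hypoxia + rSRGN had 12 of 62 genes called higher, 29 lower and 21 not called, beside 24.1% of all tested genes called higher and 24.7% called lower. Strit1 had 0 counts in all 9 libraries, and Mrln and Atp2b2 had too few for the test.

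**Figure D5:**
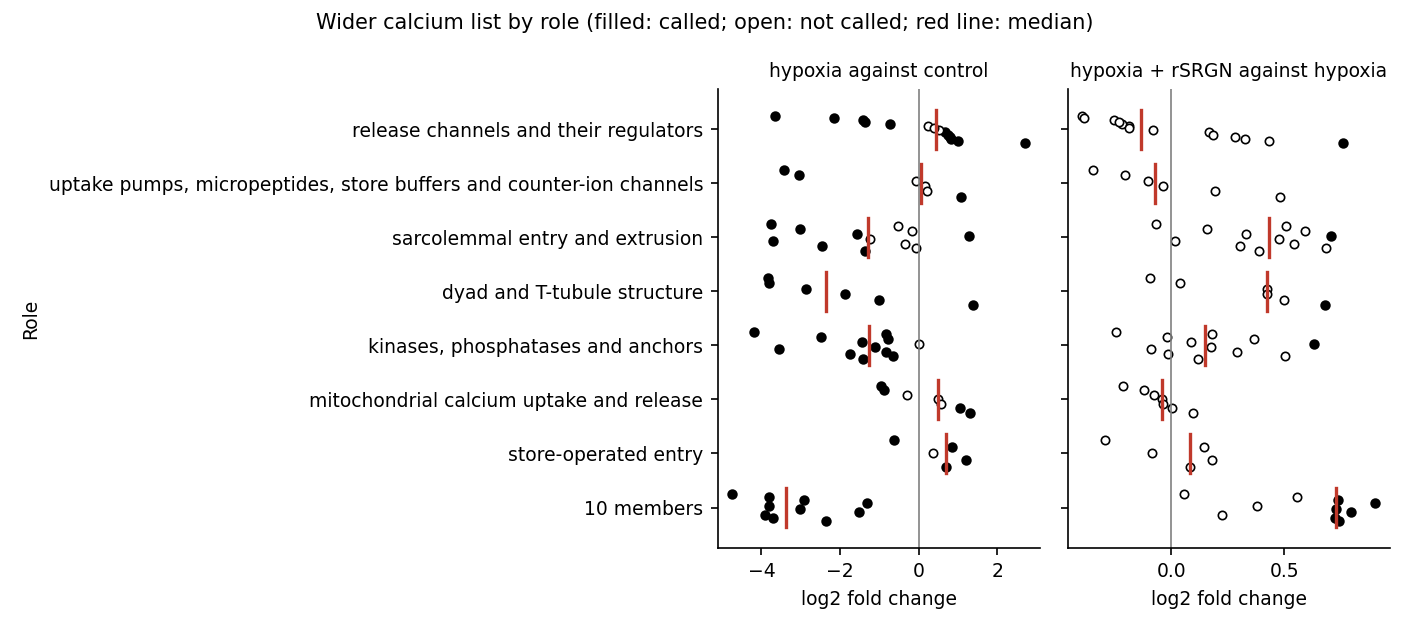
Log2 fold change of the 62 tested genes of the wider calcium list, by role, and of the 10 members (bottom row), for hypoxia against control (left) and hypoxia + rSRGN against hypoxia (right); filled points were called, open points were not, and red lines are medians. The median of the members is -3.37 in the left panel and 0.73 in the right, while store-operated entry genes have a median of 0.70 in the left panel.

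Markers of the cardiomyocyte moved with the members. All 14 were called lower in hypoxia, beside 25.1% of all tested genes, with a median log2 change of -3.63 and a range from -4.95 to -2.40. In hypoxia + rSRGN against hypoxia 12 of 14 were called higher, beside 2.27% of all tested genes, with a median of 0.77. The count was 8 of 14 without hypoxia replicate 3, beside 1.84% of all tested genes called in either direction. Summed scaled CPM of the 14 markers were 48484 to 59483 in control, 3952 to 5983 in hypoxia, lowest in replicate 3, and 7665 to 8164 in hypoxia + rSRGN. None was at 0 in any group. For hypoxia against control 7 of 10 members lay inside the range of the marker changes, and Jph2, Camk2d and Sln lay above it, that is they fell less than any marker. For hypoxia + rSRGN against hypoxia 7 lay inside, Pln lay above at 0.90 against a highest marker change of 0.89, and Jph2 and Sln lay below.

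Set against the mean log2 CPM of the markers in the same library, Ryr2, Casq2 and Hrc differed between hypoxia and control by -0.12, -0.10 and -0.03 with overlapping groups. Slc8a1 at -0.21 and Pln at -1.02 were lower relative to the markers without overlap. Atp2a2 at 0.67, Cacna1c at 0.81, Sln at 1.34, Jph2 at 2.22 and Camk2d at 2.41 were higher without overlap. Since the markers themselves fell, 96.7% of all tested genes were higher relative to them without overlap, and 0.573% were lower. Between hypoxia + rSRGN and hypoxia, 7 of 10 members overlapped once set against the markers, with differences from -0.20 to 0.15. The exceptions were Jph2 at -0.71, Sln at -0.52 and Camk2d at -0.38, which were lower relative to the markers with rSRGN. On this scale 74.5% of all tested genes were lower without overlap and 0.107% were higher. Hypoxia replicate 3 had the lowest marker mean of its group, and without it (chosen after seeing the data) the differences were -0.54 for Jph2, -0.51 for Sln and -0.25 for Camk2d, still without overlap, and from -0.12 to 0.24 for the other 7, which overlapped. The part of the markers' own change in the change of the members was not tested.

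Markers on the other lists, of which the atrial list is also one of heart muscle, moved in differing directions. Their calls in hypoxia against control stand beside 26.4% of all tested genes called higher and 25.1% called lower. In hypoxia against control 6 of 8 fibroblast markers were called higher, with summed CPM of 8657 to 10243 in control, 17099 to 19890 in hypoxia and 18917 to 19478 in hypoxia + rSRGN. All 8 macrophage markers were called lower, from summed CPM of 230 to 246 in control to 24.4 to 27.0 in hypoxia and 28.8 to 34.6 in hypoxia + rSRGN. Of the endothelial markers 4 of 5 were lower, from 56.6 to 77.9 in control to 37.0 to 43.3 in hypoxia and 39.1 to 48.4 in hypoxia + rSRGN. Of the atrial markers 3 of 4 were lower (3593 to 4028, 537 to 1008, and 1045 to 1478 in the 3 groups), of the smooth muscle and pericyte markers 1 of 5 was lower and 1 higher (1298 to 1557, 1874 to 2199, and 1612 to 1720), and of 3 tested skeletal muscle markers 1 was lower (8.89 to 12.3, 4.11 to 5.26, and 4.59 to 5.83). The smooth muscle and pericyte sum was mostly Acta2 (90026 counts in control, the next being Myh11 with 835), not called at 0.55. Tagln was at 1.47, while Myh11 was at -0.47, Cnn1 at -0.84 and Rgs5 at -0.39. The macrophage sum was mostly Lyz2 (12590 counts in control, the next being Cd68 with 1018). In hypoxia + rSRGN against hypoxia 4 of these 33 tested markers were called higher and 1 lower, beside 2.27% and 0.859% of all tested genes. They were Nppa (a log2 change of 1.03) and Myl4 (0.76) of the atrial list, the endothelial marker Kdr (0.93) and the pericyte marker Rgs5 (0.78), all higher, and the fibroblast marker Tcf21 (-0.76), which was lower. Nppa and Myl4 were lower in hypoxia against control, at -2.60 and -2.44, as the cardiomyocyte markers were. Which cells carried these transcripts was not tested. Without hypoxia replicate 3, an alternative chosen after seeing the data, all of these called markers but Rgs5 (0.63) were still called. Of all tested genes 1.84% were then called in either direction. Transcripts encoded by the mitochondrial genome also differed, with messenger RNA at 8.07% to 9.24% of counts in control, 2.74% to 3.45% in hypoxia and 2.54% to 2.95% in hypoxia + rSRGN, and ribosomal RNA at 0.195% to 0.239%, 2.31% to 2.61% and 2.27% to 2.67%. With the genes of the mitochondrial genome left out of the fit, 10, 6 and 10 members were called in the 3 comparisons. Of all tested genes 51.5%, 3.13% and 48.7% were then called in either direction. Any other part of the mitochondrial transcripts in the results of the members was not tested.

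The genes outside the members whose profile over the 9 libraries lay nearest to the median profile of the members were Pygm (muscle glycogen phosphorylase), Fam174b, the marker Tnni3 (cardiac troponin I), Ppargc1a (a coactivator of mitochondrial genes) and Pgam2 (muscle phosphoglycerate mutase). Likeness was the root mean square distance of log2 CPM, centred on the control mean, among 9740 candidate genes, and it was 0.08 for Pygm and 0.10 for Pgam2. Among the members themselves the distance from that median profile was smallest for Atp2a2, at 0.28, and largest for Camk2d, at 1.56, Jph2, at 1.30, and Pln, at 1.05.

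Promoter sequences of RefSeq (GRCm38.p6, 250 bases before to 50 after each start site) were matched by symbol for 8 of 10 members, with 11 promoters in all, of which Cacna1c has 3 and Jph2 has 2 that lie 20 bases apart and so share most of their letters. The sequences shown are those of Pln and Slc8a1, whose falls were the deepest before any correction for exon length, and of Jph2 and Camk2d, whose falls were the smallest, chosen after their values were seen so that promoters of unlike members can be compared. Each is written 5′ to 3′ on the strand of its gene, and capitals mark matches, on either strand, to the motifs searched: the GC box GGGCGG, the TATA box TATAAA, the GATA site AGATAA and the core ACGTG of the hypoxia response element. Pln lies on the plus strand at chr10:53337436-53337735, Slc8a1 on the minus strand at chr17:81738338-81738637, Jph2 on the minus strand at chr2:163397944-163398243 and Camk2d on the plus strand at chr3:126596701-126597000.
Pln: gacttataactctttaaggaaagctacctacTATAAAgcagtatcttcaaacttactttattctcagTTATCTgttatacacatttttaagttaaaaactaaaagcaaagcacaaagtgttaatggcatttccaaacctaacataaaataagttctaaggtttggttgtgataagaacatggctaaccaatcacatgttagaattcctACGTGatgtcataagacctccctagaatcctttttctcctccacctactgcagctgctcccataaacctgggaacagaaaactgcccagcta
Slc8a1: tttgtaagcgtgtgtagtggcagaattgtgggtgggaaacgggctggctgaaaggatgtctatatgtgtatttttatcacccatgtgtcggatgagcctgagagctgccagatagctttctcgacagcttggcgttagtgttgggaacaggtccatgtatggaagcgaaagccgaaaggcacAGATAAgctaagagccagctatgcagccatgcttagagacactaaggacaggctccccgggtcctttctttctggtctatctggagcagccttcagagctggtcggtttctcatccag
Jph2: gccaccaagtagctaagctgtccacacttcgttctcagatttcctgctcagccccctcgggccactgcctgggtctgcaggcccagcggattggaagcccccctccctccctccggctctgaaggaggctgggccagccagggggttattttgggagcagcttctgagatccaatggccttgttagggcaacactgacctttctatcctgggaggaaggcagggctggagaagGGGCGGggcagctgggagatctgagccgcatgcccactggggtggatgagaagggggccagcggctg
Camk2d: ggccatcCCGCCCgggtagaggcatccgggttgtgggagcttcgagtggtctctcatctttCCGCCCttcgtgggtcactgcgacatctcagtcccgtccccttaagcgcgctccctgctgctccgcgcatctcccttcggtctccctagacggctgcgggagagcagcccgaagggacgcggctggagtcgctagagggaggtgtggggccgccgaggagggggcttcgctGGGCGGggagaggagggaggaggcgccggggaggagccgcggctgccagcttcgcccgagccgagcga

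The GC content of these windows was 36% for Pln, 50.7% for Slc8a1, 63% for Jph2 and 70.3% for Camk2d, beside a median of 52.7% over 32851 promoters, and they held 1, 9, 7 and 31 CpG dinucleotides. GC content did not follow the size of the fall in all members, since the window of Ryr2, which fell 14.04-fold, had 65.3% and that of Casq2 44.7%. The Pln window holds the letters TATAAA from -219 to -214 relative to the start site, farther upstream than a TATA box usually lies. Such a match occurs anywhere in the window in 13.6% of all promoters and in no other member window. The Pln window also holds a GATA site on the opposite strand (in 11.2% of all promoters) and a core of the hypoxia response element. The Slc8a1 window holds a GATA site, the Jph2 window a GC box and the Camk2d window 3 matches to the GC box. The GC box was found in 6 of 11 member windows, or 5 of 8 members, since both overlapping Jph2 windows hold the same match, beside 35.7% of all promoters, and the hypoxia response core in 4 of 11 (windows of Pln, Hrc, Ryr2 and Cacna1c), beside 19.6%.

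The core of the hypoxia response element also lies within the E-box CACGTG, which occurred in 7.15% of all promoters. The E-box, the MEF2 site (3.69%), the M-CAT element CATTCC (14.7%), the CArG box (1.63%) and the heat shock element (7.86%) had 0 matches in the 11 windows, which says only that these letters are not in these stretches.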

How the data were processed

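RNA was sequenced in 9 libraries, in 3 groups of 3, and groups and replicate numbers were taken from the sample labels. The authors deposited fragment counts per gene, as whole numbers without normalization. Per the file headers, fragments were counted with featureCounts 2.0.1 in paired-end mode over exons of GENCODE mouse release 25 (GRCm38), with no strand option, and the submitters' processing notes name HISAT2 and mm10. Counts of genes that overlap on opposite strands are therefore uncertain. All count columns were used.

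Tests used edgeR 4.0.16 under R 4.3.3 (filterByExpr, TMM scaling, 1 mean per group over 9 libraries, quasi-likelihood test, Benjamini-Hochberg adjustment over 16762 genes). A call required a fold of 1.5 or more with an adjusted p under 0.05. The SE of a log2 change is its size divided by the square root of the F statistic. Log2 CPM values used a prior count of 2. The script was checked on simulated counts. DESeq2 1.42.0 was an alternative, with other scalings, filters, thresholds and left-out libraries. Library pairs of a group differed beyond sampling noise (chi-square per degree of freedom from 3.63 to 13.1), so no pair was taken for repeat deposits of the same library. This does not show that they came from separate cultures. Figures were drawn with matplotlib in Python. Opposite-strand overlaps and transcript lengths came from a GENCODE annotation of GRCm38.

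The members, the gene lists and the tests were chosen with earlier results of these data known. Named genes were all members, the 2 genes with the highest mean level in each role of the calcium list, the 5 genes nearest to the median profile among those with a mean of at least 10 CPM, and marker genes by list. Exceptions are said where they occur.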

Additional observations from a re-analysis of the deposited data

How the results depend on the processing

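For hypoxia against control and for hypoxia + rSRGN against control, all 10 members kept their direction and their call under each of the 16 alternatives per member that gave a call, which covered other scalings, filters and tests, the replicate block and single libraries left out. Taking out the trend on exon length gave values with no test. There every member kept its direction in all 3 comparisons, and a log2 change past the fold limit was left for 10 of 10 members in each comparison with control and for 4 of 10 between the hypoxia groups. No share of all tested genes was counted for this setting. Upper quartile scaling moved the median log2 change of all genes for hypoxia against control from 0.05 to 0.19, and that of the members to -3.24. For hypoxia + rSRGN against hypoxia, 147 of the 160 member values with a call kept their direction and call, 11 lost the call (6 in the test against the fold limit and 5 without hypoxia replicate 3), 2 gained it (Cacna1c, without hypoxia replicate 1 or hypoxia + rSRGN replicate 3) and 0 changed sign. The number of members called there, 6 beside 3.13% of all tested genes, became 0 in the test against the fold limit, where 0 of the tested genes passed. With single libraries left out it ran from 1 to 7. It was 1 without hypoxia replicate 3, beside 1.84% of all tested genes. It was 7 without hypoxia replicate 1 (beside 3.91%) and without hypoxia + rSRGN replicate 3 (beside 3.34%). Without hypoxia replicate 3 and without the fold limit, an alternative chosen after seeing the data, it was 8, beside 9.85%. The calcium list, with 4 of 62 tested genes called, had 2 without hypoxia replicate 3, beside the same 1.84%, also chosen after seeing the data.

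Same-numbered libraries did not deviate together (correlations from -0.037 to 0.021), so no pairing by replicate number was seen. This does not show that libraries of the same number came from separate preparations. With the replicate number as a block, 10, 6 and 10 members were called in the 3 comparisons, and 8550, 495 and 8096 genes in all.

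Of the ratio differences, 10 of 168 changed sign, all for pairs that overlapped between groups and all with a single library left out. Over such omissions the log2 difference ran from -0.0452 to 0.0302 for Slc8a1 to Atp2a2 between the hypoxia groups. For Casq2 to Ryr2 it ran from -0.0631 to 0.141 between hypoxia and control, from -0.199 to 0.00461 between the hypoxia groups and from -0.107 to 0.0334 between hypoxia + rSRGN and control. For Hrc to Casq2 it ran from -0.0447 to 0.145 between hypoxia and control and from -0.0511 to 0.139 between the hypoxia groups. The cause of these changes was not tested. With 3 libraries a group, differences near the fold limit of 1.5 could not be placed on either side of it.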
